A study of Homo sapiens with 2 samples.

Results

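Metallothioneins are small cysteine-rich proteins that bind zinc, copper and cadmium, and the liver is a main site of their synthesis. When free zinc rises, the zinc-sensing transcription factor MTF1 moves to metal response elements in the promoters of metallothionein genes and of SLC30A1, which encodes the zinc exporter ZnT1 of the plasma membrane. The 10 genes described here are the metallothionein genes MT1A, MT1E, MT1F, MT1G, MT1H, MT1M, MT1X and MT2A, together with MTF1 and SLC30A1. They were chosen by name, and all 10 were found among the 26228 gene names that the tables of both libraries hold. No member lay in a locus joined with a neighbouring gene, and each name had a single row in either table.

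RNA was sequenced from PLC, a human liver cancer cell line, with either an empty lentiviral vector (EV, genotype wild type by the labels) or a stable lentiviral over-expression of human PRSS35, a secreted protease (PRSS35). No further treatment is named for either culture, beyond the puromycin selection with which the paper established its stable cells. The paper gives DMEM with serum for the culture of these cells, and its RNA-seq methods do not state the medium at harvest. With 1 library of EV and 1 of PRSS35, no difference could be checked in replicates and no test was made. The effect of PRSS35 and the variation from culture to culture cannot be told apart. Levels are FPKM, fragments scaled to the length of the transcript and to the fragments mapped, each with the lower and upper bound that Cufflinks puts around it. These bounds cover error within a library only. Changes are given as log2 of FPKM + 1 in PRSS35 over FPKM + 1 in EV, which makes the changes of low genes look smaller than they are, and the interval given after a change spans 2 standard errors on either side, taken from the bounds. Depth was alike, with 31458088 fragments in EV and 31541213 in PRSS35 as estimated from the width of the bounds.

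PRSS35 itself had 0.643 FPKM (interval 0.445 to 0.841) in EV and 1836 FPKM (interval 1759 to 1912) in PRSS35, which is the direction of the labels. All 12 markers of hepatocytes or liver cancer cells had a mean of at least 1 FPKM, among them AFP at 18.9 FPKM in EV and 17.7 FPKM in PRSS35, whereas the 4 leukocyte markers summed to 0 FPKM in EV and 0.234 FPKM in PRSS35. The 4 endothelial markers summed to 0.0373 and 0.0307 FPKM and the 5 fibroblast markers to 1.75 and 2.03 FPKM. COL3A1, DCN, KDR, PTPRC and CD3E were listed at 0 in both libraries.

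The promoters are shown because metal response elements are the sequence feature through which MTF1 reaches these genes, and because genes with many of them were both abundant and listed at 0 in these cells. The promoter table of RefSeq (GRCh38.p14) holds 5 of the members, MT1H, MT1X, MT2A, MTF1 and SLC30A1. MT1A, MT1E, MT1F, MT1G and MT1M are not shown. Each window of 250 bases before the RefSeq start matched GRCh37, the assembly of hg19, exactly once. Capitals mark every match to the core of the metal response element, TGCACNC or TGCGCNC, on either strand. The windows are given 5′ to 3′ on the strand of the gene for the most abundant metallothionein genes, for a metallothionein gene listed at 0, and for the exporter:
MT2A, chr16:56642246-56642495, plus strand: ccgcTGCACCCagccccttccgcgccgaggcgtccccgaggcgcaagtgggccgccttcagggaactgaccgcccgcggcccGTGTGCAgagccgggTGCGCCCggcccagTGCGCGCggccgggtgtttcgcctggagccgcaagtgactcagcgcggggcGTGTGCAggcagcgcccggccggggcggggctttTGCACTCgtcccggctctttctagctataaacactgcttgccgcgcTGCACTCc
MT1X, chr16:56716132-56716381, plus strand: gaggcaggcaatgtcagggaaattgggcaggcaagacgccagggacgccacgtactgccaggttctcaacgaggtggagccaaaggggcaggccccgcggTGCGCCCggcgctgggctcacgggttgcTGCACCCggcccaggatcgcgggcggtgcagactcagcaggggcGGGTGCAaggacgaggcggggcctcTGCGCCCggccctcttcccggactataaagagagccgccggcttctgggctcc
MT1H, chr16:56703476-56703725, plus strand: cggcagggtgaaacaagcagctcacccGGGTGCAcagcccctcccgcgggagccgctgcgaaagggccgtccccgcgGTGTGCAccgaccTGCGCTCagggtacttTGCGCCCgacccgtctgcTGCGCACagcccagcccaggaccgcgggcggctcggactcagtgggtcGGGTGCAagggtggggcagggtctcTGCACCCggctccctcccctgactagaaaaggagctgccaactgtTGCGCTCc
SLC30A1, chr1:211752504-211752753, minus strand: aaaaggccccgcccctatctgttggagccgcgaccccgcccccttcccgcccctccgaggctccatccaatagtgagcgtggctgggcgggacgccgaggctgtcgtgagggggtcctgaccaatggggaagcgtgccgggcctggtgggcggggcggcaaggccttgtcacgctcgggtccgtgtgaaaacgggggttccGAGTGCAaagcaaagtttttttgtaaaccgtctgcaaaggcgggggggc

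The MT2A window holds 7 core matches, the MT1X window 4 and the MT1H window 8. The core was found in 24.8% of 35116 promoters of this length, and at least 4 matches in 0.370% of them. A match at bases -53 to -47 from the start was shared by MT1X and MT1H, and MT2A had one at -54 to -48. MT2A and MT1H also shared a match at -8 to -2. The SLC30A1 window holds 1 match, at -49 to -43, and 6 matches to the GC box GGGCGG, a pair of them overlapping, which 42.6% of promoters hold at least once. No core match was found in the window of MTF1. The TATA box letters TATAAA lie at -29 to -24 in MT2A and at -30 to -25 in MT1X, and 10.7% of promoters hold them. The MT1H window has no TATAAA. MT1B and MT4, further metallothionein genes that were also listed at 0 in both libraries, hold it at -30 to -25 and at -29 to -24. Each of these 2 windows has 3 core matches. All motifs were searched on both strands, and at MT1X a core match overlaps a GC box. A match is a description of letters and not a site of binding.

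MT2A, the most abundant metallothionein gene, lies on chromosome 16 of hg19 from 56642478 to 56643409. It had 1627 FPKM (interval 1588 to 1665) in EV and 1445 FPKM (interval 1408 to 1481) in PRSS35. The PRSS35 value was thus the lower, by 11.2%, and the intervals did not overlap. In bulk RNA, fewer cells with the transcript and less of it per cell cannot be told apart. The log2 change was -0.17 (interval -0.22 to -0.12), while the median over all 11118 genes with a mean of at least 1 FPKM, called expressed here, was 0.06. Of these expressed genes, 19.1% had a lower log2 change than MT2A. In rank by FPKM among the named loci of its library, MT2A was at 78 in EV and at 87 in PRSS35. The bounds imply 7161 fragments in EV and 6330 in PRSS35, and the locus kept its annotated structure in both. The direction depends on the scaling. The log2 change was -0.13 with scaling to named loci, -0.23 after centring on the median change and -0.24 with upper quartile scaling. When each library was scaled to its total FPKM, unnamed loci included, it was 0.54 and the median of all expressed genes 0.68. Unnamed loci held 65.3% of the total FPKM in EV and 44.9% in PRSS35. Relative to the median gene, MT2A was at -0.23 as deposited and at -0.14 with the scaling to total FPKM.

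MT1X, on chromosome 16 from 56716382 to 56718108, was the other abundant metallothionein gene. It had 216 FPKM (interval 199 to 233) in EV and 213 FPKM (interval 199 to 228) in PRSS35. The values lay inside each other's intervals, and the log2 change was -0.02 (interval -0.17 to 0.13). The locus was assembled from the reads in EV and annotated in PRSS35, and the bounds imply 633 fragments in EV and 845 in PRSS35 for nearly the same FPKM. In GENCODE, a long noncoding RNA gene on the same strand starts at the same base as MT1X and covers it, and its reads were not separated from those of MT1X here. The ratio of MT2A to MT1X was 7.54 (interval 6.91 to 8.16) in EV and 6.77 (interval 6.28 to 7.27) in PRSS35, and these intervals overlapped. In implied fragments, the ratio was 11.3 in EV, where the MT1X locus was assembled, and 7.49 in PRSS35. The log2 change of MT2A minus that of MT1X was -0.15 (interval -0.31 to 0.00465), so a difference in change between the genes was not resolved.

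The remaining metallothionein members were low or listed at 0. MT1A had 2.32 FPKM (interval 0.774 to 3.87) in EV and 2.62 FPKM (interval 0.929 to 4.32) in PRSS35, which correspond to about 9.0 and 9.59 fragments. Its intervals overlapped over most of their length. MT1F had 0.766 FPKM (interval 0 to 1.67) in EV and 1.55 FPKM (interval 0.279 to 2.83) in PRSS35, or about 2.87 and 5.95 fragments. With a log2 change of 0.53 (interval -0.50 to 1.56), it had the widest interval of the members, and a difference was not detectable at this depth. MT1E, MT1G, MT1H and MT1M were listed at 0 in both libraries, each at a locus that kept its annotated identifier. A value of 0 in these tables need not mean absence, since 155 gene names listed at 0 in either EV or PRSS35 reached at least 5 FPKM in the remaining library. NDUFB10, which encodes a subunit of respiratory complex I, is 1 of them, with 0 in EV and 536.7 FPKM in PRSS35. All of the 155 names differ by 2-fold. Among expressed genes with loci annotated in both libraries, only 17 were higher and 15 lower by 2-fold. Most of the 155 therefore had an assembled locus in a library, unlike the 4 members listed at 0 in both.

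**Figure D1:**
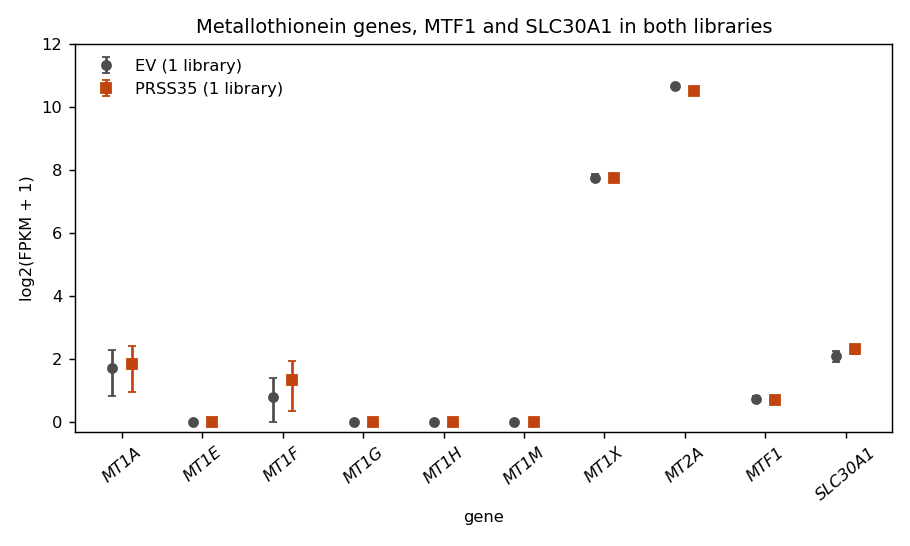
Level of each member as log2(FPKM + 1) in the EV library (circles) and the PRSS35 library (squares), with the Cufflinks bounds as bars. MT2A and MT1X stand above 7 on this scale in both libraries, and MT1E, MT1G, MT1H and MT1M are listed at 0 in both.

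In order of level, MT2A came first in both libraries, followed by MT1X, SLC30A1 and MT1A, and the intervals of MT2A and MT1X were apart from each other and from those of all other members. SLC30A1 and MT1A overlapped in both libraries. MT1A and MT1F also overlapped in both, as did MT1F and MTF1, the lowest member above 0. These levels are per length, but the FPKM that an implied fragment stood for was not constant. For MT1X, 1 implied fragment was worth 0.341 FPKM in EV and 0.252 in PRSS35, and for MT2A 0.227 and 0.228. At the PRSS35 gene, annotated in both libraries, the bounds imply 42.2 fragments for 0.643 FPKM in EV and 2310 for 1836 FPKM in PRSS35. Implied fragments thus did not follow FPKM at every locus, and why they differed at MT1X was not tested. Summed over the 8 metallothionein members, the level was 1846 FPKM (interval 1804 to 1888) in EV and 1662 FPKM (interval 1623 to 1702) in PRSS35. The sum was lower by 9.94% in PRSS35, with a log2 change of -0.15 (interval -0.20 to -0.10) which became 0.56 when each library was scaled to its total FPKM, against a median gene at 0.68. In EV 88.1% of this sum came from MT2A and 11.7% from MT1X, and in PRSS35 the shares were 86.9% and 12.8%. All other metallothionein members together gave 0.167% in EV and 0.251% in PRSS35.

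The family genes that are no members were at or near 0 as well. Of 8 further metallothionein genes and pseudogenes listed, 7 were in both tables, and none had a mean of at least 1 FPKM. MT1B, MT1L, MT1IP, MT1DP and MT4 were listed at 0 in both libraries. MT3, the metallothionein known from brain, had 0 FPKM in EV and 0.419 FPKM (interval 0 to 0.839) in PRSS35. The pseudogene MT1JP had 0.710 FPKM (interval 0 to 1.53) in EV and was listed at 0 in PRSS35. Within the cluster, the abundant genes MT2A and MT1X are far apart, with MT1X starting 73.9 kb after the start of MT2A. All MT1 genes that were low or listed at 0 lie in between, MT1A and MT1F among them.

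**Figure D2:**
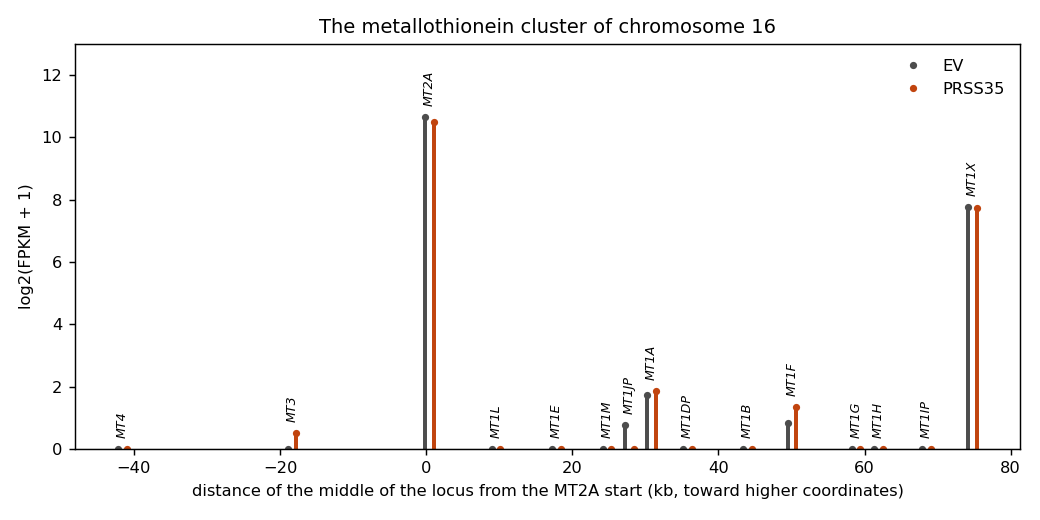
Levels along the metallothionein cluster as log2(FPKM + 1) in EV and PRSS35, against the distance of each locus from the start of MT2A in kb. MT2A and MT1X, 73.9 kb apart, carry the signal, and MT1A, MT1F, MT1JP and MT3 are the only other metallothionein loci above 0 in either library.

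The genes that flank the cluster were compared as well, to show whether the values around it were shared. Of 9 listed neighbours on chromosome 16, 6 were expressed, with a median log2 change of 0.20. NUP93, a nuclear pore protein gene after MT1X, had 45.3 and 43.5 FPKM with overlapping intervals. HERPUD1 had 33.1 and 40.5 FPKM and BBS2 2.55 and 3.40 FPKM, both with intervals apart and the PRSS35 value higher. NUDT21, at 10.3 and 11.2 FPKM, and OGFOD1, at 11.9 and 12.1 FPKM, overlapped. Thus 3 of the 6 expressed neighbours had intervals apart with the higher value in PRSS35, and 0 of them with the lower value in PRSS35, the direction of MT2A. Over all expressed genes these shares were 25.2% and 15.5%.

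MTF1, on chromosome 1 from 38275239 to 38325292, had 0.673 FPKM (interval 0.568 to 0.779) in EV and 0.626 FPKM (interval 0.521 to 0.732) in PRSS35. The intervals overlapped, the locus was annotated in both libraries, and the bounds imply 163.0 and 140.0 fragments. With a mean of 0.650 FPKM it lay under the filter, and its log2 change was -0.04 (interval -0.17 to 0.09).

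SLC30A1, on chromosome 1, had 3.30 FPKM (interval 2.81 to 3.80) in EV and 3.97 FPKM (interval 3.47 to 4.46) in PRSS35. The PRSS35 value was the higher, with overlapping intervals and a log2 change of 0.21 (interval -0.01 to 0.43). The locus did not have the same extent in the libraries. In EV it kept its annotated structure from 211748381 to 211752099, and an unnamed locus from 211745015 to 211747597, inside the SLC30A1 gene of GENCODE (211744910 to 211752503, minus strand), had 1.10 FPKM (interval 0.853 to 1.35). In PRSS35 a single assembled locus ran from 211745017 to 211752694. The bounds imply 175.6 fragments at the named locus and 78.0 at the unnamed one in EV, 253.6 in all, and 257.2 in PRSS35. The ratio of PRSS35 to EV was 1.46 for the implied fragments of the named locus and 1.01 for those of both loci together. These fragments are read from the width of the bounds, are not counts and need not follow FPKM. Neither ratio can therefore settle whether SLC30A1 changed.

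Of the 10 members, 5 passed the filter of a mean of at least 1 FPKM, namely MT1A, MT1F, MT1X, MT2A and SLC30A1. On the scale of FPKM + 1, 0 members were higher by 2-fold in PRSS35 and 0 were lower by 2-fold. For MT1F, the member with the largest change, FPKM in PRSS35 was 203% of that in EV, with few fragments behind it. Among all expressed genes 2.73% were higher and 2.48% were lower by 2-fold, 303 and 276 genes, and scaling to total FPKM made this 1273 and 180 genes. By the Cufflinks intervals, 1 of the 5 members, MT2A, was lower in PRSS35 with intervals apart, where 15.5% of all expressed genes were lower in this way. For 0 of the 5 the intervals were apart with the higher value in PRSS35, where 25.2% of all expressed genes were higher in this way. The median log2 change of the 5 members was 0.12, against 0.06 for all expressed genes, and over all 10 members, of which 4 are listed at 0, it was 0. The median of 0.12 is the value of MT1A, which rests on few fragments and has an interval of -0.83 to 1.08. Of the 5 members, 3 were above 0 and 2, MT1X and MT2A, below.

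**Figure D3:**
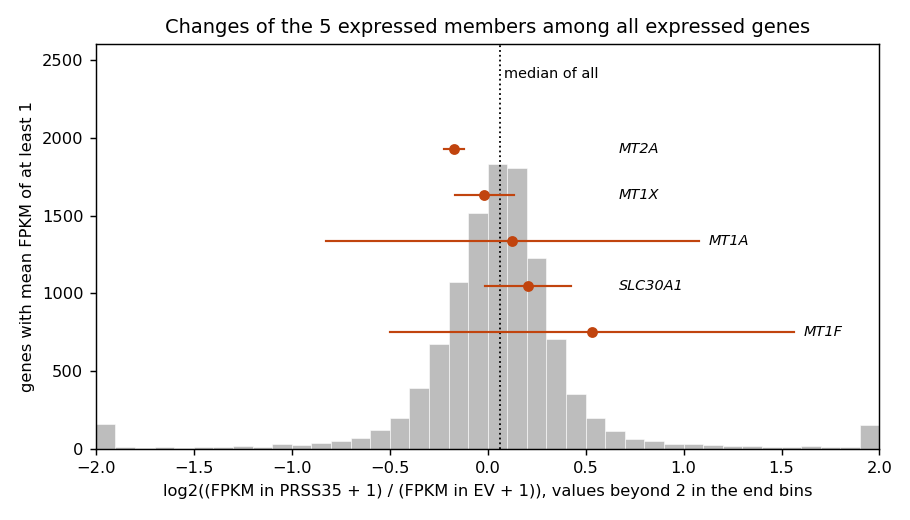
Histogram of the log2 change between PRSS35 and EV over 11118 expressed genes (bars of 0.1, values beyond 2 in the end bins), with the changes of the 5 expressed members as points and their 2 standard error intervals as lines, drawn at arbitrary heights. The dotted line is the median of all expressed genes, 0.06, and the interval of MT2A lies wholly below it.

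The change of MT2A was set beside those of genes like it in length, level or locus structure. The MT2A transcript of GENCODE has 401 bases in 3 exons. The 105 expressed genes with a GENCODE transcript under 600 bases and a mean of at least 100 FPKM, MT2A and MT1X among them, had a median log2 change of -0.13, with intervals apart and the lower value in PRSS35 for 42.9% of them and the higher for 12.4%, against 15.5% and 25.2% of all expressed genes. For the 346 genes with a mean of at least 500 FPKM the median log2 change was -0.06, and 37% were lower and 24% higher in this way. By contrast, the 2382 expressed genes whose locus was annotated and unjoined in both libraries, as for MT2A, had a median log2 change of 0.08, with 6.84% lower and 23.5% higher with intervals apart. The part of length, level and locus structure in the value of MT2A was not tested. In base composition, 1309 expressed genes within 2 percentage points of the GC content of the MT2A transcript had a median log2 change of 0.08. The locus nearest to MT2A in level over both libraries, at a distance of 0.0661 on the log2 scale, joins C17orf49, RNASEK and RNASEK-C17orf49, with 1633 FPKM in EV and 1380 FPKM in PRSS35. As that locus carries all 3 names, it takes the places of the 3 nearest gene names, over 2 libraries.

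The likeness of the metallothionein genes limits how their reads can be assigned. By the GENCODE models, MT1A, MT1F, MT1H, MT1M, MT1X and MT2A encode 61 residues and MT1G encodes 62, and 20 of the codons are for cysteine in each of these. Their coding sequences are 89.6% to 93.5% identical between MT2A and an MT1 gene and 88.5% to 93.4% identical between MT1 genes. MT1E was left out of these ranges because its canonical GENCODE transcript, the one used here, has 127 codons with 14 for cysteine. No other MT1E transcript was aligned. Of the stretches of 50 bases in the transcript, 10.2% at MT2A and 18% at MT1X occur in a transcript of another family gene. For MT1A the share is 5.76%, for MT1F 6.12%, for MT1G 19.9% and for MT1H 20.4%. At 100 bases the share was 0% for each of the 8 genes but MT1H, at 3.36%. The read length and the treatment of reads with several matches are not given in the sources used here. The 9.0 fragments at MT1A and 2.87 at MT1F in EV stand beside 7161 at MT2A, so the low MT1 values are uncertain, and reads passed on from MT2A or MT1X were not tested for.

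The other genes of the zinc transporter families gave a background for SLC30A1. The SLC30 family mostly moves zinc out of the cytosol, and 7 of its 9 other listed genes were expressed, with mean levels from 1.54 to 11.2 FPKM. None differed by 2-fold, the median log2 change was 0.19, and 6 of the 7 were above 0. SLC30A7, a transporter of the Golgi, had 1.37 FPKM (interval 1.21 to 1.54) in EV and 1.78 FPKM (interval 1.60 to 1.97) in PRSS35, with a log2 change of 0.23. It was the only one of the 7 with intervals apart. SLC30A4 had 1.94 and 3.11 FPKM, with a log2 change of 0.48 and overlapping intervals. SLC30A3, the most abundant of the list, had 11.0 and 11.5 FPKM, and SLC30A5, a transporter of the secretory pathway, had 6.98 and 6.08 FPKM, both with overlapping intervals. SLC30A10, with a log2 change of 0.21, overlapped as well.

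The SLC39 family moves zinc into the cytosol, and 10 of its 14 listed genes were expressed. None differed by 2-fold, and the median log2 change was 0.13. The intervals were apart for 3 of the 10 with the higher value in PRSS35 and for 1 with the lower, near the 25.2% and 15.5% of all expressed genes. SLC39A11 had 7.24 FPKM (interval 6.54 to 7.95) in EV and 13.5 FPKM (interval 11.9 to 15.1) in PRSS35, a log2 change of 0.82. Its locus was assembled in both libraries, and the bounds imply 419 fragments in EV and 295 in PRSS35, against the direction of FPKM. SLC39A14, a zinc and iron importer of hepatocytes, had 28.5 FPKM (interval 27.1 to 29.8) and 36.7 FPKM (interval 35.1 to 38.2). SLC39A7, which releases zinc from the endoplasmic reticulum, had 115 and 143 FPKM. SLC39A4, the intestinal zinc importer that is mutated in acrodermatitis enteropathica, was the most abundant gene of the list, with 263 FPKM (interval 250 to 276) in EV and 231 FPKM (interval 219 to 243) in PRSS35. Its log2 change of -0.18 was close to that of MT2A. SLC39A3 had 235 and 217 FPKM with overlapping intervals.

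Copper is also bound by metallothioneins, and 12 of 13 listed genes of copper handling were expressed, with a median log2 change of 0.16 and none at 2-fold. The intervals were apart with the higher value in PRSS35 for 6 of the 12 and with the lower for 1, SCO2 at a joined locus, where all expressed genes gave 25.2% and 15.5%. COX11, a copper chaperone of cytochrome oxidase, had 29.6 and 42.2 FPKM, a log2 change of 0.50. SLC31A2, a copper transporter, had 7.09 and 9.82 FPKM, and ATP7B, the copper pump affected in Wilson disease, had 7.38 and 9.70 FPKM. SOD1, the copper and zinc superoxide dismutase, had 313 FPKM (interval 298 to 328) in EV and 363 FPKM (interval 346 to 381) in PRSS35. SCO2 is listed at a locus joined with ODF3B and TYMP, at 451 and 265 FPKM, so this value belongs to no single gene.

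Hormone and stress targets were read out because glucocorticoids and heavy metals also induce metallothionein genes. Of 8 glucocorticoid targets 5 were expressed, with a median log2 change of 0.22. DUSP1, a phosphatase, had 101 and 128 FPKM, TSC22D3 had 7.93 and 10.6 FPKM, and PER1, a clock gene, had 15.8 and 13.1 FPKM. The intervals were apart for these 3 genes, of which PER1 was the one lower in PRSS35. The other 2, FKBP5 with a log2 change of 0.08 and SGK1 with 0.22, overlapped, and FKBP5 is listed at a joined locus.

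Of 9 metal and heat stress targets 8 were expressed, with a median log2 change of -0.10. HMOX1, which encodes heme oxygenase and responds to cadmium, had 103 FPKM (interval 99.7 to 106) in EV and 97.8 FPKM (interval 92.7 to 103) in PRSS35, and these overlapped. DNAJB1 had 62.2 and 77.0 FPKM and GCLM, a subunit of the enzyme that starts glutathione synthesis, had 9.23 and 7.90 FPKM, each with intervals apart. HSPA1A and HSPA1B share a joined locus at 130.9 FPKM in EV and have loci of their own at 90.4 and 70.1 FPKM in PRSS35, which sum to 160.5. Their separate log2 changes of -0.53 and -0.89, and with them 2 of the 3 genes of this list that were lower with intervals apart, therefore compare a joined locus with single genes. With unjoined rows only, the median of the list was -0.03.

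**Figure D4:**
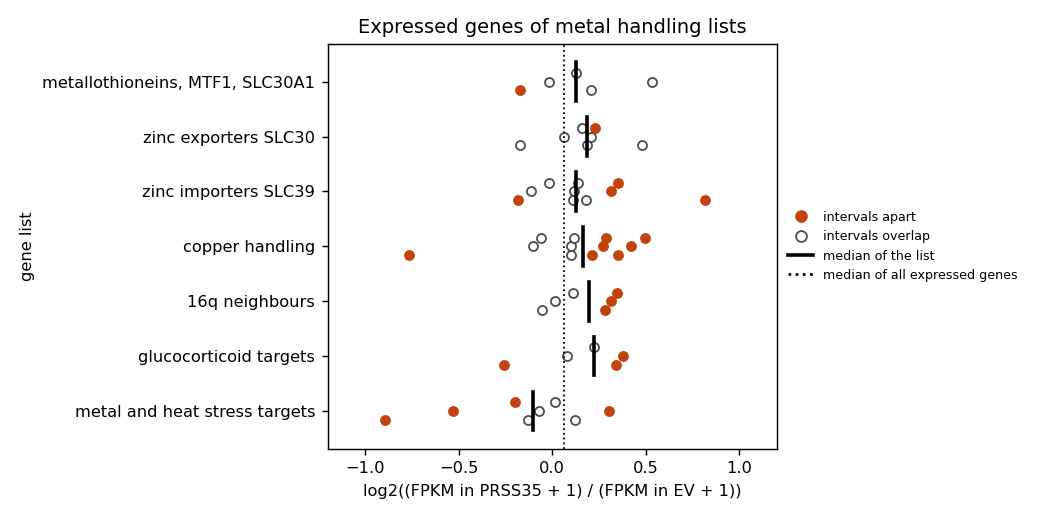
Log2 change between PRSS35 and EV for each expressed gene of the member list (5 genes) and of 6 lists of related genes, filled where the Cufflinks intervals of the libraries were apart and open where they overlapped. Black bars are list medians, from -0.10 for the metal and heat stress targets to 0.22 for the glucocorticoid targets, and the dotted line is the median of all expressed genes, 0.06. With unjoined rows only, the medians of these lists were -0.03 and 0.28.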

How the data were processed

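Expression was measured by RNA-seq in 1 EV and 1 PRSS35 library of PLC cells. Per the methods and the submitters' processing notes, the authors mapped the reads with TopHat2 2.1.0 (hg19), ran Cufflinks (the notes name Cuffdiff 2.2.1) and deposited 1 table a library, with FPKM and its bounds for each locus. The annotation release and options are not given in the sources used here. Loci were read as counted from 0 and are printed from 1.

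Loci off the main chromosomes were dropped, the rows of a name were added up, and a joined locus counted for each of its names. No test was run, as there are no replicates and no counts. Implied fragments are (2 × FPKM / (upper bound − FPKM)) squared. They depend on the width of the bounds and did not follow FPKM at every locus. TXNRD1 had 1159 in EV and 23.4 in PRSS35, for 13.2 and 13.3 FPKM. Depth is a Theil-Sen slope, over genes of 1 exon (78 for EV, 86 for PRSS35), of fragments per FPKM on length. The change function was tested on simulated data with bounds set from Poisson counts, which does not check the deposited bounds.

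The members and the lists were chosen with earlier results of these data known. Genes named from a list are those at 2-fold, the 4 with the largest absolute change and the 2 with the highest level. Further genes were named after their values were seen. Single values of some listed genes are not reported here. Alternatives were other pseudocounts, scalings, filters and folds, the highest row per name, and unjoined rows only. Gene models and transcripts were from GENCODE v44lift37 and promoters from RefSeq. The software was matplotlib 3.10.9, biopython 1.88, scipy 1.17.1, pandas 2.3.3 and numpy 2.4.6 under Python 3.11.15.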

Additional observations from a re-analysis of the deposited data

Results flagged for a closer look

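In the deposited tables, 3 unnamed loci with signal lie at SLC30A1, and no gene name covers them. The locus inside the gene in EV, whose implied fragments were added to those of SLC30A1 above, had 1.10 FPKM. A locus that starts 465 bases before the GENCODE start of the gene had 1.77 FPKM (interval 0.956 to 2.58) in EV, from 211752968 to 211753585 on chromosome 1. Its counterpart in PRSS35, from 211753010 to 211753548, had 2.08 FPKM (interval 1.07 to 3.08). The bounds imply 18.9 fragments in EV and 17.0 in PRSS35. The last 2 loci enter no comparison.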

How the results depend on the processing

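No paired analysis was possible because EV and PRSS35 are single libraries, and neither could be left out. The counts of members higher and lower by 2-fold were 0 in every setting run, also at 1.5-fold. Scaling each library to its total FPKM moved the median change of the expressed genes from 0.06 to 0.68 (log2), that of the 10 members to 0.39, that of the summed metallothioneins to 0.56 and that of PRSS35 to 10.64. PRSS35 was at 11.27 for a pseudocount of 0.1 and at 8.35 for one of 5. The summed metallothioneins were at -0.21 after centring on the median change and at -0.22 with upper quartile scaling. Of 303 genes higher and 276 lower by 2-fold, there were 192 and 162 for a pseudocount of 5, 1273 and 180 with the scaling to total FPKM (87.6% higher, against 52.3%), 581 and 475 at 1.5-fold, 183 and 184 with unjoined rows, and 202 and 169 with a mean of at least 5 FPKM. Among the 2382 expressed genes with loci annotated in both libraries, a restriction chosen after seeing the data, there were 17 and 15 (0.714% and 0.630%, against 2.73% and 2.48%). Beyond the smaller number of genes in the restricted sets, why these values moved was not tested. Of 48 values of single members under these settings, 42 moved by less than their interval, and 4 of the other 6 moved with the scaling to total FPKM. The few fragments at MT1A and MT1F limit what can be said of them.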
